A study of Mus musculus with 30 samples.

Results

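Meioc, Ythdc2, Rbm46, Dazl, Boll, Ddx4, Ddx25, Ybx2 and Elavl2 encode 9 RNA-binding proteins that regulate transcripts in male germ cells. They were chosen by symbol, and each symbol led through its Ensembl identifier to 1 row of the 65534 rows held of the deposited expression table. The study asked how the transcriptome of mouse testicular germ cells develops when Prdm9 is missing, and sequenced polyadenylated RNA from 30 libraries of 14 litters. Prdm9 encodes the histone methyltransferase that marks the sites of meiotic recombination, and spermatocytes without it are known to arrest in meiotic prophase. Levels are in TPM, a relative unit corrected for transcript length and scaled to the same total in each library, so they can be set side by side between genes.

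The mutant libraries came from Prdm9-/- mice, 5 at each of 8, 12 and 16 days post partum (dpp). Non-mutant libraries numbered 5 at each age: 2 +/- and 3 +/+ at 8 dpp, 4 +/- and 1 +/+ at 12 dpp, and 3 +/- and 2 +/+ at 16 dpp. All mice were males of strain C57BL/6J with under 10% 129S1/SvImJ, and the labels used here do not name the Prdm9 allele. Tubules were digested with Liberase and rinsed to remove interstitial cells, and the labels call the product germ cells enriched from testes. The +/- and +/+ libraries were pooled here as non-mutants because 12 dpp has only 1 +/+ library.

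MEIOC, YTHDC2 and RBM46 act as partners at the entry into meiosis, where they bind transcripts of the mitotic programme and lower them. DAZL and BOLL belong to the DAZ family, which promotes translation of germ cell transcripts, and DDX4 and DDX25 are DEAD-box helicases of the germ granule, where small RNAs and stored transcripts are handled. YBX2 coats and stores transcripts in meiotic and later germ cells, and ELAVL2 is a Hu protein that binds AU-rich RNA. Translation is uncoupled from transcription through much of sperm formation, so such proteins set when a transcript is used.

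Markers of other cells and the labels were checked first. The 9 Sertoli cell markers summed to between 2934 and 4462 TPM in every library, so Sertoli RNA was present throughout. The 8 spermatid markers summed to 2.71 to 13.49 TPM. Of these, Prm1, Prm2, Tnp2 and Acrv1 stayed under 1 TPM in every library, whereas Tnp1, Spaca1 and Izumo1 reached 1 TPM in some library of every group. Markers of interstitial cells were present in every library too, the 7 Leydig cell markers at 106.9 to 519.3 TPM and the 6 macrophage and leukocyte markers at 26.56 to 132.3 TPM. The 10 pachytene markers summed to at most 106.6 TPM at 8 and 12 dpp. Prdm9 itself had 6.89 to 12.8 TPM in 16 dpp mutants, against 19.7 to 34.4 TPM in 16 dpp non-mutants (log2 difference -1.24 ± 0.26, SE; limma adjusted p = 0.003524), so Prdm9 RNA was lower but still present in libraries labelled -/-. At 12 dpp the litter mates labelled -/- replicate 5 and +/- replicate 4 went against their labels, with 19.2 and 9.16 TPM of Prdm9, and at 8 dpp Prdm9 did not separate the genotypes. Results for 12 dpp were therefore also computed without that litter. At 16 dpp, +/- replicates 2 and 3 stood apart with 1149 and 1439 TPM of pachytene markers, where the other non-mutants had 289.2 to 528.1 TPM and the mutants 135.9 to 178.8 TPM.

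Ybx2, Ddx25 and Ddx4 had lower levels in mutants than in non-mutants at 16 dpp, whereas Meioc, Ythdc2, Rbm46, Dazl, Boll and Elavl2 passed no test at that age. The gap was widest for Ybx2, at 59.6 ± 6.09 TPM in mutants and 208 ± 106 TPM in non-mutants (SD, n = 5 each). Ddx25 averaged 41.5 ± 2.65 TPM in mutants and 75.3 ± 24.2 TPM in non-mutants, and Ddx4 averaged 149 ± 13.9 TPM in mutants and 230 ± 42.8 TPM in non-mutants (SD, n = 5 each). For these 3 genes every mutant library lay below every non-mutant library. The share of all rows separated in this way is not given here. The test was limma on log2(TPM + 1) over 20021 rows with Benjamini-Hochberg adjustment, called under 0.05. All 9 genes were among the rows tested, and by this test 3.26% of all rows were called at 16 dpp, 2.75% as lower and 0.509% as higher. In these bulk libraries fewer cells of a type and less RNA per cell cannot be told apart.

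Because these 3 genes moved together, the genome upstream of their starts is shown, with the bases before the first transcribed base of both RefSeq and GENCODE M21 (RefSeq sequence, GRCm38.p6). Capitals mark a CCAAT box (CCAAT, or ATTGG on the other strand) and a GC box (GGGCGG, or CCGCCC on the other strand).
Ybx2, chr11:69935649-69935795, plus strand: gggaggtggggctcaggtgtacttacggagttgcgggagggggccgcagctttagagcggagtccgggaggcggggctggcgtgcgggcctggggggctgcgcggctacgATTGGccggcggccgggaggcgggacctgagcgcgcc
Ddx25, chr9:35558529-35558720, minus strand: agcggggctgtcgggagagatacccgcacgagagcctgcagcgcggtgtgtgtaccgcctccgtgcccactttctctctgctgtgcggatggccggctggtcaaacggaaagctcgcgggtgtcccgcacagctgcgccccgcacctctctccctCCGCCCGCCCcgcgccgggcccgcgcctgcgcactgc
Ddx4, chr13:112652476-112652560, minus strand: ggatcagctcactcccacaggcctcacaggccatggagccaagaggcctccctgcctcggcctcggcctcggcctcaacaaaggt
The GENCODE models of all 3 genes begin upstream of the RefSeq start, which is why the stretches differ in length, at 147, 192 and 85 bases.

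The upstream stretch of Ybx2 holds 1 inverted CCAAT box, the element called a Y box after which the YBX family is named, and that of Ddx25 holds 2 overlapping GC boxes. Neither element occurs in the 85 bases shown for Ddx4. In the full 250 bases before the RefSeq start, 6 of the 8 genes searched (all but Ythdc2) held a CCAAT box on either strand, among them Ybx2, Ddx25 and Ddx4, compared with 34.5% of 27018 mouse promoters. A GC box occurred in 4 of 8, compared with 33.0% of promoters, and the E-box CACGTG in Rbm46, Boll and Ddx4, compared with 6.04%. The MYB motif AACNGNC (27.6% of promoters) was found before the RefSeq starts of Meioc and Elavl2, on either strand. The whole windows of Meioc and Elavl2 lie inside their GENCODE models, as do the last 165, 58 and 103 bases of the Ddx4, Ddx25 and Ybx2 windows. Those bases hold every match found for Ddx4, the CCAAT box of Ddx25 and 1 of the 2 CCAAT boxes of Ybx2. The cyclic AMP response element TGACGTCA (1.60% of promoters) was found before none of the 8, on either strand. The windows of Ybx2, Ddx25 and Ddx4 were 77.2, 73.6 and 70.4% G and C with 35, 34 and 31 CpG, whereas the median promoter had 52% and 6 CpG. Those of Meioc, Dazl, Rbm46, Boll and Elavl2 were also above this median, at 55.6 to 67.6% with 10 to 22 CpG. These matches describe letters in a window and were not tested against the expression values.

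**Figure D1:**
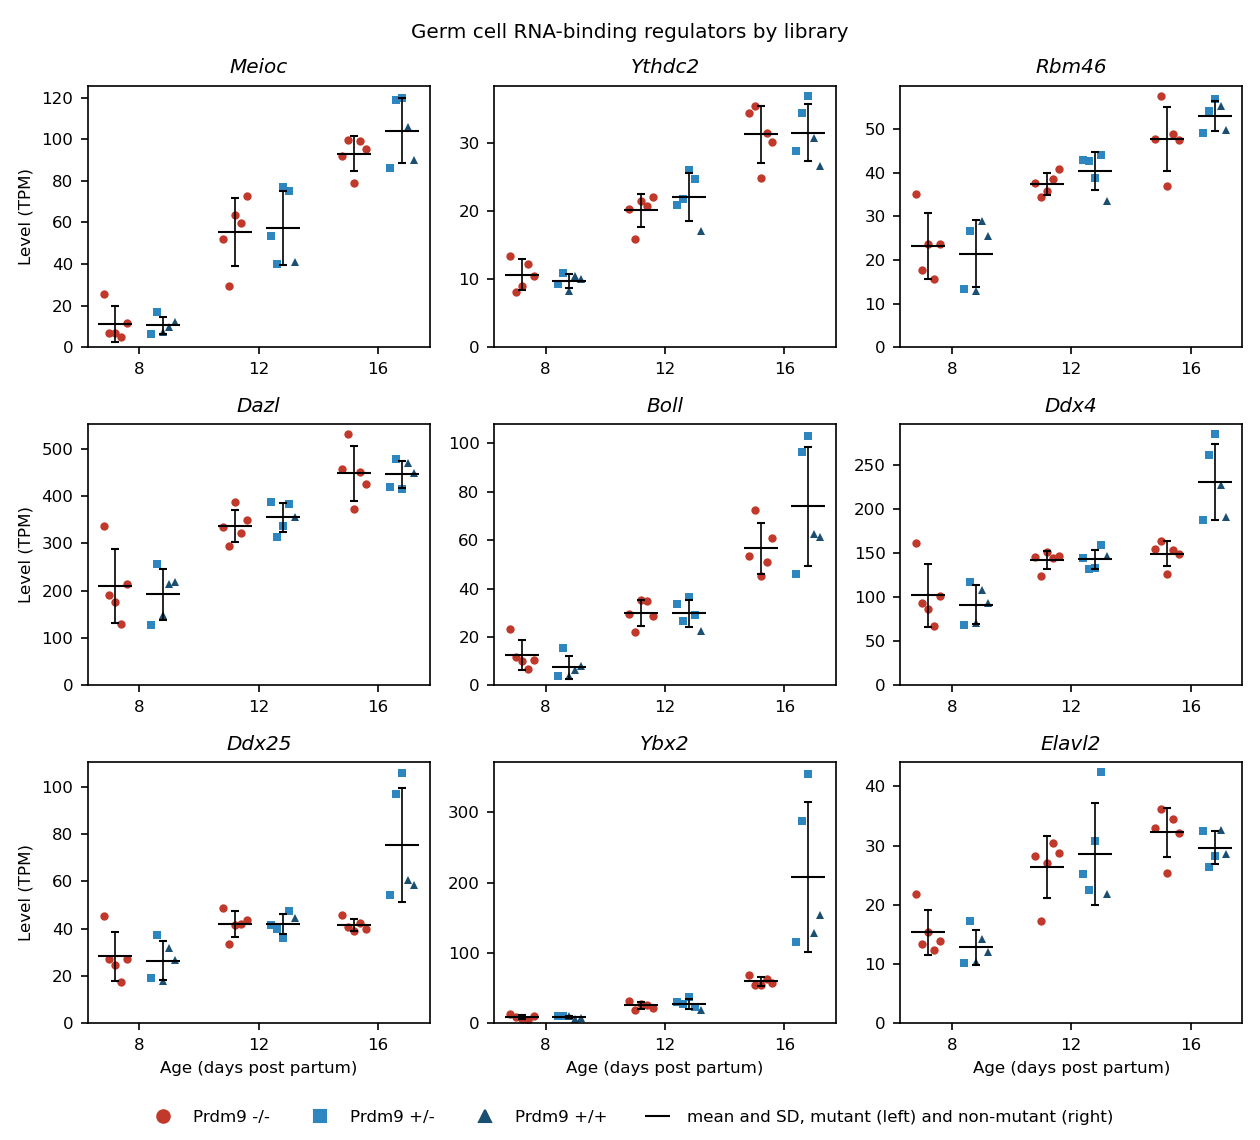
Level in TPM (y axis of each panel) against age in days post partum for the 9 genes, 1 point per library, with circles for Prdm9 -/-, squares for +/- and triangles for +/+; lines and bars are the mean and SD of 5 mutant libraries (left) and 5 non-mutant libraries (right). At 16 dpp the mutants lie below all non-mutants for Ddx4, Ddx25 and Ybx2. At that age +/- replicates 2 and 3 are the 2 highest libraries for Meioc, Boll, Ddx4, Ddx25 and Ybx2.

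Ybx2, on chromosome 11 from 69935796 to 69941605 (mm10), encodes the germ cell Y-box protein also known as MSY2. In the 16 dpp mutants it had 68.75, 54.34, 54.93, 62.70 and 57.22 TPM (replicates 1 to 5), against 116.04, 287.71 and 353.56 TPM in +/- libraries and 128.31 and 154.40 TPM in +/+ libraries. The mutants were close to each other, whereas the non-mutants were spread widely with 2 of the +/- libraries on top. The difference was -1.65 ± 0.25 on the log2 scale (SE; limma adjusted p = 3.911e-05), and the mutant mean was 0.287 of the non-mutant mean. Within each of the 5 litters the mutant was below its mate, at 0.162 to 0.592 of the mate's level. Ybx2 stayed called without any 1 library, with differences between -1.82 and -1.42, and also without +/- replicates 2 and 3 together, at -1.14 ± 0.22 (SE; limma adjusted p = 0.004094).

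Ddx25, on chromosome 9 from 35536647 to 35558528, encodes the gonadotropin-regulated testicular helicase GRTH, which takes part in export and storage of transcripts. Its levels were 45.63, 40.63, 39.01, 42.63 and 39.80 TPM in 16 dpp mutants, against 54.20, 97.06 and 106.00 TPM in +/- libraries and 60.77 and 58.70 TPM in +/+ libraries. Groups did not overlap, and +/- replicate 1 and both +/+ libraries were nearer to the mutants than to the other +/- libraries. The difference was -0.79 ± 0.20 (SE; limma adjusted p = 0.01794). Every mutant was below its litter mate, at 0.375 to 0.842 of its level. The call was lost without +/- replicate 2 (-0.69, adjusted p = 0.09957), without +/- replicate 3 (-0.65, adjusted p = 0.1196) and without both (-0.47, adjusted p = 0.6608). It was also lost with the +/+ libraries alone as non-mutants, at -0.52 (limma adjusted p = 0.4743).

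Ddx4, on chromosome 13 from 112598333 to 112652475, encodes the mouse Vasa homolog, the core helicase of germ granules and of the piRNA pathway. It had 153.93, 163.23, 125.93, 152.91 and 149.18 TPM in 16 dpp mutants, against 186.84, 260.52 and 284.92 TPM in +/- libraries and 226.75 and 191.07 TPM in +/+ libraries. The groups were separate, and the lowest non-mutant, +/- replicate 1, was the library with the lowest pachytene sum among non-mutants. The difference was -0.61 ± 0.16 (SE; limma adjusted p = 0.02763), and each mutant had 0.524 to 0.824 of its litter mate's level. Leaving out +/- replicate 2 or 3, +/+ replicate 1 or -/- replicate 3 or 5 took the adjusted p over 0.05 (0.05458 to 0.1524), and leaving out +/- replicates 2 and 3 together gave -0.43 (adjusted p = 0.611). The call was also lost with +/- libraries alone as non-mutants, at -0.69 (limma adjusted p = 0.05121), and with +/+ libraries alone, at -0.49 (limma adjusted p = 0.4629).

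**Figure D2:**
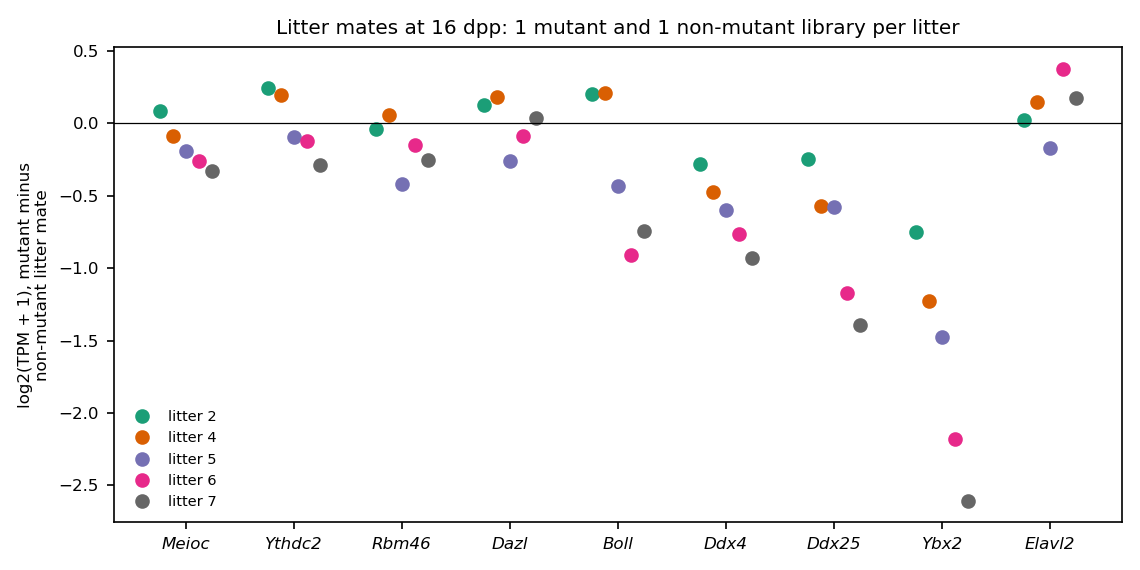
Difference in log2(TPM + 1) between the mutant and the non-mutant library of each of 5 litters at 16 dpp (y axis), 1 point per litter and gene, coloured by litter. For Ddx4, Ddx25 and Ybx2 all 5 litters lie below 0, from -2.61 to -0.75 for Ybx2, and for the other 6 genes the litters fall on both sides of 0.

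The pachytene markers moved with these 3 genes: 7 of the 8 tested were lower in mutants, with a median log2 difference of -3.21 over the 8, and the order of the 5 non-mutant libraries by pachytene sum was also their order by Ybx2. Their part in the result was not tested. Sums of the leptotene and zygotene markers overlapped, at 953.9 to 1442 TPM in mutants and 1051 to 1488 TPM in non-mutants, as did those of Sertoli markers, at 3009 to 3545 TPM in mutants and 2989 to 3481 TPM in non-mutants. The Leydig cell markers summed to 186.9 to 519.3 TPM in 16 dpp mutants and 106.9 to 391.4 TPM in 16 dpp non-mutants, and the macrophage and leukocyte markers to 69.8 to 132.3 TPM in mutants and 45.34 to 98.75 TPM in non-mutants. Both sums overlapped between the groups but were higher in the mutant of each of the 5 litters. No gene of either list was called, with median log2 differences of 0.70 and 0.46, and their part in the result was not tested either. In an exact two-sided permutation test of single genes, Ybx2, Ddx25 and Ddx4 each had p = 0.00794, the smallest that all splits of 5 against 5 libraries allow. Their adjusted p was 0.0714 over the 27 tests of the 9 genes at 3 ages, which misses 0.05. Larger differences in these 3 genes could not have lowered it, so the miss does not bear on the size of their differences.

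Boll, on chromosome 1, the oldest member of the DAZ family and in mice required for spermatids, overlapped between the groups. It had 53.32, 72.34, 45.24, 50.96 and 61.04 TPM in 16 dpp mutants, against 46.22, 96.60 and 102.99 TPM in +/- libraries and 62.44 and 61.50 TPM in +/+ libraries. The 2 libraries with most pachytene marker RNA were highest, and the other non-mutants lay within the mutant range. The difference was -0.34 (95% interval -0.90 to 0.23; limma adjusted p = 0.6837), and it was -0.01 without +/- replicates 2 and 3. Boll is overlapped by the opposite-strand pseudogene Gm8292, and since use of read strand is not given, reads of the 2 cannot be told apart.

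Dazl, on chromosome 17, which recruits poly(A)-binding protein to its targets, averaged 448 ± 57.5 TPM in mutants and 446 ± 28.5 TPM in non-mutants at 16 dpp (SD, n = 5 each). Its difference was -0.001 with a 95% interval of -0.35 to 0.35 on the log2 scale. The meiotic entry partners also overlapped. Meioc had 79.0 to 99.8 TPM in mutants and 86.2 to 120 TPM in non-mutants, with a difference of -0.15 (-0.75 to 0.44). Ythdc2, whose protein has a helicase and an m6A-binding YTH domain, had 24.9 to 35.4 TPM in mutants and 26.7 to 37.0 TPM in non-mutants, with a difference of -0.01 (-0.28 to 0.25). Rbm46 had 37.1 to 57.6 TPM in mutants and 49.1 to 56.9 TPM in non-mutants, with 4 of 5 mutants below the lowest non-mutant and a difference of -0.16 (-0.54 to 0.21). Elavl2 had 25.4 to 36.2 TPM in mutants and 26.4 to 32.6 TPM in non-mutants, with a difference of 0.11 (-0.24 to 0.46). The intervals in brackets are 95% intervals of the difference, and a missed threshold does not show equal levels. Elavl2 overlaps Gm12653 and Mir6402 in the annotation and carries the same doubt about strand as Boll. Prdm9, used above to check the labels, overlaps Gm18564, so its levels carry a like doubt.

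**Figure D3:**
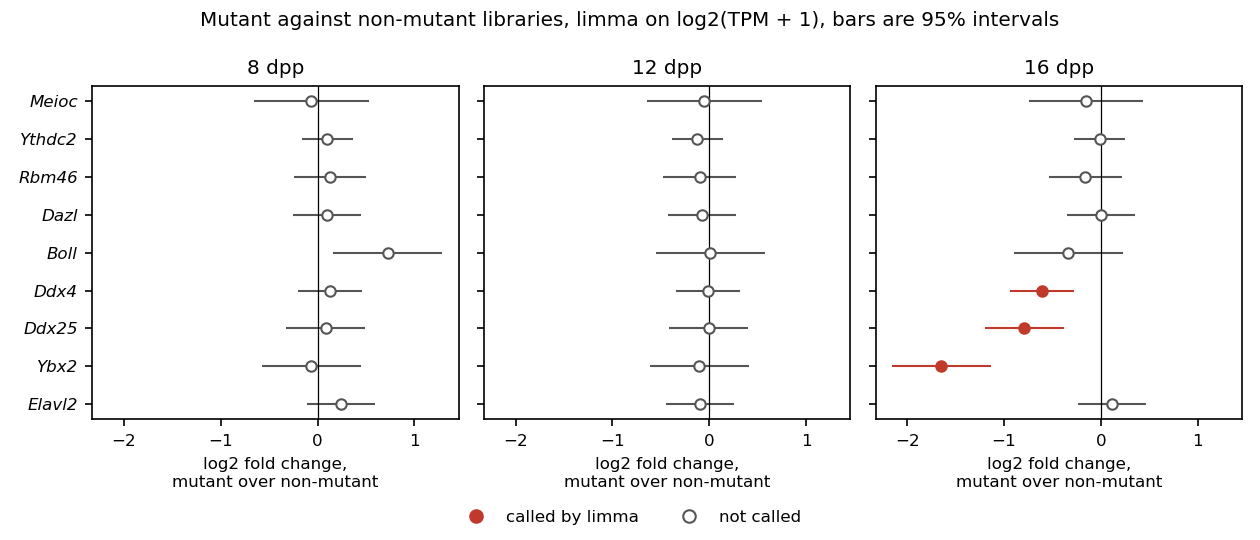
Log2 fold change of mutant over non-mutant libraries (x axis, on log2(TPM + 1)) for the 9 genes at 8, 12 and 16 dpp; points are limma estimates from 5 against 5 libraries, bars are 95% intervals, and filled red points were called. No gene was called at 8 or 12 dpp, and Ddx4 (-0.61), Ddx25 (-0.79) and Ybx2 (-1.65) were called lower at 16 dpp.

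At 12 and 8 dpp no member was called, and neither was any other of the 20021 rows (0.00% at either age; 225 rows at 12 dpp and 417 at 8 dpp had an unadjusted limma p under 0.05). At 12 dpp the differences of the 9 genes lay between -0.12 and 0.01 on the log2 scale, and no member was called without the litter that went against its labels either. Ybx2 had 31.96, 19.18, 27.98, 26.24 and 22.37 TPM in 12 dpp mutants, against 31.19, 27.85, 37.17 and 23.56 TPM in +/- libraries and 19.01 TPM in the +/+ library. Both genotypes thus covered nearly the same range for the gene that was furthest apart at 16 dpp. Ddx4 and Ddx25 averaged 142 ± 10.6 and 41.9 ± 5.49 TPM in 12 dpp mutants and 143 ± 10.9 and 42.0 ± 4.33 TPM in 12 dpp non-mutants (SD, n = 5 each).

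At 8 dpp Boll had the largest difference, 0.72 (95% interval 0.16 to 1.29; limma adjusted p = 1). Its levels were 23.46, 11.88, 10.21, 6.93 and 10.33 TPM in 8 dpp mutants, against 3.85 and 15.44 TPM in +/- libraries and 3.94, 6.41 and 7.84 TPM in +/+ libraries. The groups overlapped, and the top mutant, replicate 1, was the highest mutant for 9 of the 9 genes and had a leptotene and zygotene marker sum of 286.7 TPM, where the other 8 dpp mutants had 104.1 to 179.5 TPM. Among non-mutants, +/- replicate 2, with the highest such sum (240.6 TPM), was the highest for 8 of 9 genes. Not every gene followed this sum at 8 dpp. The non-mutant with the lowest sum, +/+ replicate 1 (99.94 TPM), had 10.30 TPM of Ybx2, against 6.26 TPM in +/+ replicate 2 (sum 198.4 TPM). The mutant with the lowest sum, replicate 4 (104.1 TPM), had 12.34 TPM of Ythdc2, more than every mutant but replicate 1. At 12 dpp -/- replicate 2 was the lowest mutant for 9 of 9, with the lowest such sum of its group (416.6 TPM).

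Between 8 and 12 dpp all 9 genes rose in mutants and in non-mutants, where 29.7% of all rows were called in mutants (17.5% as higher) and 32.5% in non-mutants (20.3% as higher). Meioc rose most, 4.93-fold in mutants and 5.43-fold in non-mutants by mean TPM, or by 2.36 ± 0.29 and 2.35 ± 0.29 on the log2 scale (SE; limma adjusted p = 4.485e-07 and 5.621e-07). It had 52.12, 29.48, 63.50, 59.64 and 72.72 TPM in mutants at 12 dpp, against 25.82, 6.81, 6.74, 5.25 and 11.71 TPM in mutants at 8 dpp. The ages did not overlap, and the highest 8 dpp library was replicate 1 again. Ybx2 rose 2.85-fold in mutants and 3.04-fold in non-mutants, and Boll 2.39-fold in mutants and 3.97-fold in non-mutants. The smallest rises were those of Ddx4, which already had 102 ± 35.4 TPM in mutants and 91.4 ± 22.1 TPM in non-mutants at 8 dpp (SD, n = 5 each), and of Ddx25. Ythdc2, Rbm46, Dazl and Elavl2 rose 1.61- to 1.88-fold in mutants and 1.84- to 2.26-fold in non-mutants. In mutants the 8 and 12 dpp libraries did not overlap for Meioc, Ythdc2 and Ybx2, and 8 dpp replicate 1 reached into the 12 dpp range for the other 6 genes. How many of all rows lacked overlap between these ages is not given here. The mutant rise of Ddx25 was not called without -/- 8 dpp replicate 3 or 4 or -/- 12 dpp replicate 1, nor without the litter that went against its labels (limma adjusted p = 0.05074 to 0.1004), and that of Ddx4 was not called without -/- 8 dpp replicate 4 (limma adjusted p = 0.06313). The leptotene and zygotene markers moved with the 9 genes: 10 of 10 rose in mutants and in non-mutants, with median log2 changes of 1.87 and 1.97. Their part in the rise was not tested.

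From 12 to 16 dpp the genes split. In mutants Ybx2 rose by 1.21 ± 0.25, Boll by 0.90 ± 0.27 and Ythdc2 by 0.61 ± 0.13 on the log2 scale (SE; limma adjusted p = 0.001457, 0.0302 and 0.001874), where 12.1% of all rows were called, 6.21% as higher and 5.89% as lower. Mutant Ddx4 and Ddx25 differed between the ages by 0.07 (-0.26 to 0.40) and -0.004 (-0.41 to 0.41) and were not called. In non-mutants 6 genes rose, where 21.8% of all rows were called, 8.88% as higher. They were Ybx2 (2.75 ± 0.25), Boll (1.24 ± 0.27), Meioc (0.89 ± 0.29), Ddx25 (0.78 ± 0.20), Ddx4 (0.67 ± 0.16) and Ythdc2 (0.50 ± 0.13). Rbm46, Dazl and Elavl2 passed in neither genotype, with changes of 0.33, 0.40 and 0.30 in mutants and 0.39, 0.33 and 0.09 in non-mutants. With only the compared libraries fitted, Rbm46 and Dazl were called as rising in both genotypes. Their limma adjusted p was 0.03905 and 0.01033 in mutants and 0.008277 and 0.00788 in non-mutants.

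Markers of cell types moved over the same interval. Of the 8 pachytene markers tested, 4 rose in mutants and 8 in non-mutants, with median log2 changes of 0.72 and 3.53, and for 7 of them the step itself was called smaller in mutants. Of the 10 leptotene and zygotene markers 6 rose in either genotype, with medians of 0.84 and 0.90. Of 9 Sertoli markers, 4 fell in mutants and 6 in non-mutants, and of 6 macrophage and leukocyte markers 4 rose in mutants and 1 in non-mutants. The part of these markers in the changes of the 9 genes was not tested.

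The call of Boll in mutants depended on single libraries: its adjusted p was between 0.05028 and 0.0847 without -/- 12 dpp replicate 1, 2 or 5 or -/- 16 dpp replicate 2 or 5, and 0.06422 without the litter that went against its labels. Meioc changed by 0.79 in mutants (adjusted p = 0.07414) and by 0.89 in non-mutants (adjusted p = 0.02687), so changes of similar size were on either side of the threshold. The non-mutant call of Meioc was lost without +/+ 12 dpp replicate 1, +/- 12 dpp replicate 2, or +/- 16 dpp replicate 2 or 3 (limma adjusted p = 0.06117 to 0.07653), with no filter on low values (limma adjusted p = 0.063), with +/- libraries alone (0.84, limma adjusted p = 0.1557) and with +/+ libraries alone (1.23, limma adjusted p = 0.306). Without +/- 16 dpp replicates 2 and 3 only the rise of Ybx2 was still called among the 6 in non-mutants, at 2.24 (limma adjusted p = 5.649e-08).

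**Figure D4:**
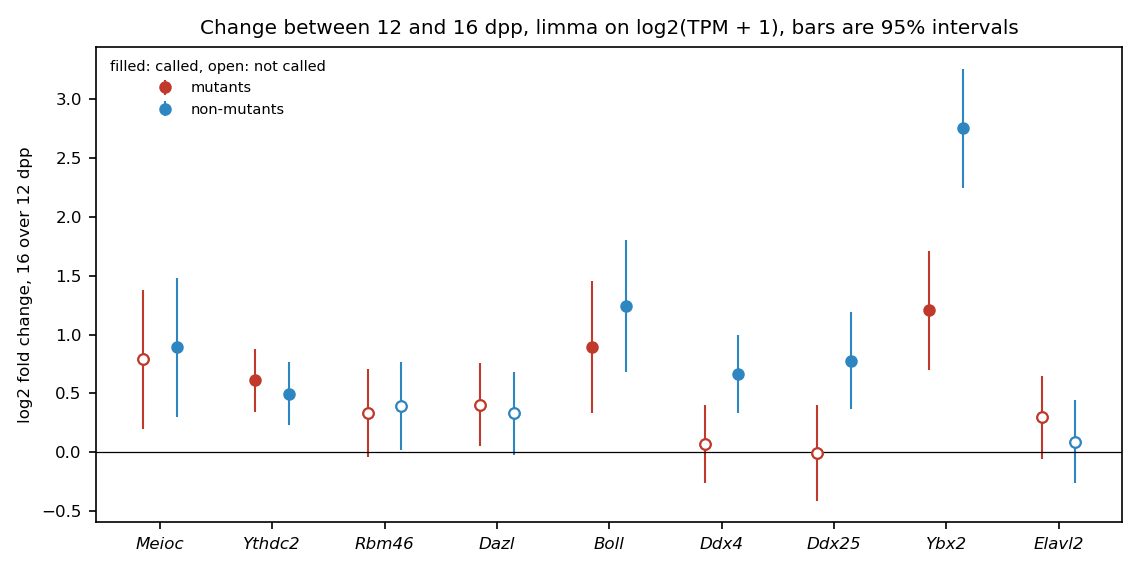
Log2 fold change from 12 to 16 dpp (y axis, on log2(TPM + 1)) for the 9 genes in mutants (red, left of each pair) and non-mutants (blue, right), with 95% intervals from limma and 5 libraries per age and genotype; filled points were called and open points were not. Ddx4 and Ddx25 lie near 0 in mutants and at 0.67 and 0.78 in non-mutants, and Ybx2 lies at 1.21 in mutants and 2.75 in non-mutants.

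The difference between the genotypes in this step was tested itself. Ybx2 was called, with a mutant step smaller by -1.55 ± 0.35 on the log2 scale (SE; limma adjusted p = 0.01543), where 1.35% of all rows were called, 1.26% as lower and 0.0849% as higher. For Ddx25 it was -0.78 ± 0.28 (adjusted p = 0.3126) and for Ddx4 -0.60 ± 0.23 (adjusted p = 0.381), and neither was called, so their steps are not shown to differ. The Ybx2 value was -1.39 (adjusted p = 0.0644) without +/- 16 dpp replicate 2, -1.32 (adjusted p = 0.05036) without replicate 3 and -1.04 (adjusted p = 0.2057) without both. The other 6 genes had differences between -0.35 and 0.21. For the step from 8 to 12 dpp none of the 9 was called, as for all other rows (0.00%; 367 rows had an unadjusted limma p under 0.05).

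Set against the younger non-mutants, 16 dpp mutants had more Ybx2 (1.10 ± 0.25), Boll (0.91 ± 0.27) and Ythdc2 (0.49 ± 0.13) than 12 dpp non-mutants had (SE; limma adjusted p = 0.003714, 0.02987 and 0.01302), where 11.4% of all rows were called, 6.06% as higher and 5.29% as lower. Ddx25 and Ddx4 differed by -0.01 (-0.42 to 0.40) and 0.06 (-0.27 to 0.39). In the same comparison 6 of 10 leptotene and zygotene, 3 of 8 pachytene, 3 of 7 Leydig cell and 4 of 6 macrophage and leukocyte markers were higher and 3 of 9 Sertoli markers lower, and their part was not tested. Without the +/+ 12 dpp library only Ybx2 was still called, at 0.98 (limma adjusted p = 0.01493), and Boll was also not called without +/- 12 dpp replicate 2 or 4 or -/- 16 dpp replicate 2 or 5 (limma adjusted p = 0.05257 to 0.07983). By mean TPM, Ybx2 in 16 dpp mutants was 2.15-fold the level of 12 dpp non-mutants with no overlap. Boll (1.90-fold) and Meioc (1.62-fold) did not overlap either, while Ddx4 was 1.04-fold and Ddx25 0.990-fold with overlap. The share of all rows without overlap in this comparison is not given here. Over the 3 ages Ybx2 thus had means of 8.97, 25.6 and 59.6 TPM in mutants (8, 12 and 16 dpp) and 9.12, 27.8 and 208 TPM in non-mutants. Ddx25 had 28.4, 41.9 and 41.5 TPM in mutants and 26.5, 42.0 and 75.3 TPM in non-mutants.

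Dazl was the most abundant of the 9 transcripts by mean TPM in every group of age and genotype. It had means of 210, 337 and 448 TPM in mutants at 8, 12 and 16 dpp and 193, 355 and 446 TPM in non-mutants. Ddx4 was second to Dazl in every group, with 102, 142 and 149 TPM in mutants and 91.4, 143 and 230 TPM in non-mutants, and only in 16 dpp non-mutants did the highest Ybx2 library (353.56 TPM) pass the highest Ddx4 library (284.92 TPM). Meioc moved up the order, with 11.3, 55.5 and 92.9 TPM in mutants and 10.6, 57.4 and 104 TPM in non-mutants.

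Boll had 12.6, 29.98 and 56.6 TPM in mutants at 8, 12 and 16 dpp and 7.50, 29.7 and 74.0 TPM in non-mutants. Rbm46 had 23.2, 37.5 and 47.8 TPM in mutants and 21.5, 40.4 and 53.1 TPM in non-mutants. Ythdc2, the least abundant at 12 dpp in both genotypes, had 10.7, 20.2 and 31.3 TPM in mutants and 9.81, 22.1 and 31.6 TPM in non-mutants. Elavl2 had 15.4, 26.4 and 32.3 TPM in mutants and 12.8, 28.6 and 29.7 TPM in non-mutants, and its 12 and 16 dpp libraries overlapped in both genotypes. Within groups the coefficient of variation of the 9 genes was highest for Meioc in 8 dpp mutants (75.4%) and lowest for Ddx25 in 16 dpp mutants (6.39%), where Ddx25 in 16 dpp non-mutants had 32.2%.

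The 9 +/- libraries were set against the 6 +/+ libraries with age as a factor, to see whether the pooled non-mutants differed among themselves. No member was called, nor any other of 18668 rows (0.00%). An unadjusted limma p under 0.05 was found for 1972 rows, of which 1824 were higher and 148 lower in +/- libraries. The lack of calls therefore does not show that the +/- and +/+ libraries were alike. Ybx2 had the largest difference of the 9, at 0.54 (95% interval 0.11 to 0.98; limma adjusted p = 0.4087), and the others lay between -0.06 and 0.37.

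Together the 9 transcripts summed to 959 ± 103 TPM in 16 dpp mutants and 1252 ± 215 TPM in 16 dpp non-mutants (SD, n = 5 each). At 12 dpp the sums were 716 ± 75.8 TPM in mutants and 746 ± 63.4 TPM in non-mutants. Within the sum Dazl took 46.6 ± 1.25% in 16 dpp mutants and 36.4 ± 5.96% in non-mutants, whereas Ybx2 took 6.26 ± 0.793% in mutants and 15.9 ± 5.52% in non-mutants. These shares are bound to each other, since a larger Ybx2 leaves less for the rest. At 8 dpp Ybx2 was the least abundant of the 9 in mutants, with 2.12% of the sum, and Dazl and Ddx4 made up 49.6 and 24.2%.

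**Figure D5:**
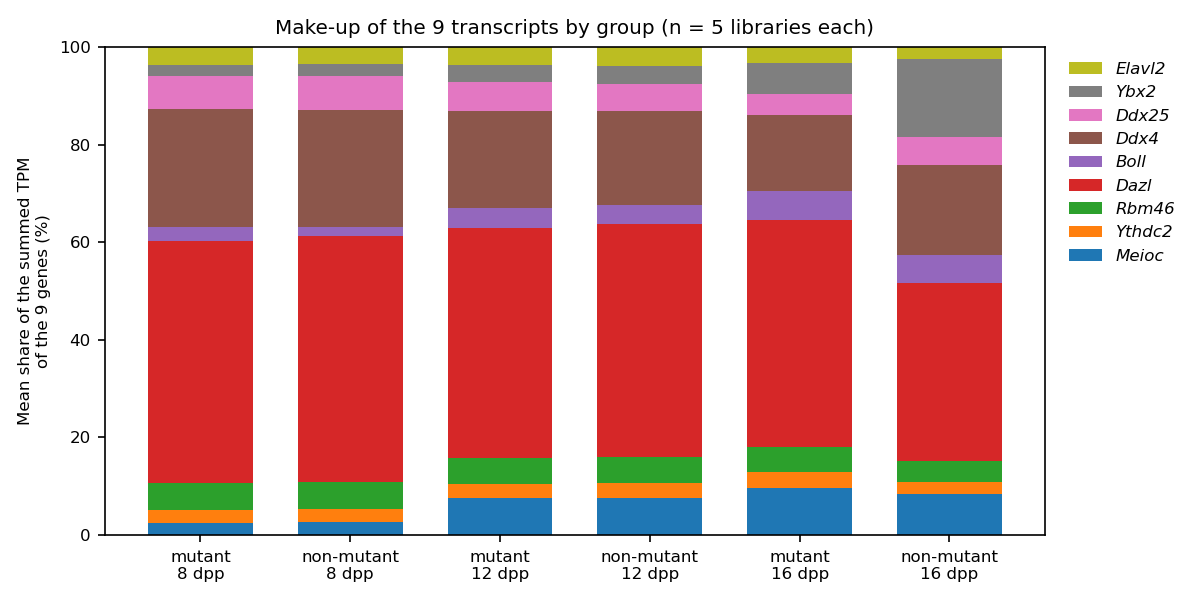
Mean share of each gene in the summed TPM of the 9 genes (y axis, percent) for mutants and non-mutants at 8, 12 and 16 dpp, 5 libraries per bar, with colours for genes. Bars of the 2 genotypes look alike at 8 and 12 dpp, and at 16 dpp Ybx2 (grey) takes 6.26% in mutants and 15.9% in non-mutants while Dazl (red) takes 46.6% and 36.4%.

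The 30 libraries differ in age, Prdm9 genotype and cell type marker sums. Across them Ddx4 and Ddx25 were the most alike pair (Pearson r of log2(TPM + 1) = 0.98). This pair was still at 0.94 after the group means were taken out. Ybx2 and Elavl2 were the least alike (0.72, and 0.15 after group means). Of 13836 other named genes, the rows most like Ddx4 were Mael (0.98) and Tcfl5 (0.98), and those most like Ddx25 were Tdrd1 and Mael (0.97 each). Tdrd1, a Tudor protein of the germ granule, averaged 39.0 ± 2.93 TPM in 16 dpp mutants and 69.9 ± 22.8 TPM in non-mutants. Ybx2 was most like Mllt10 and Rsph1 (0.97 each), and Rsph1, a radial spoke head protein of cilia and flagella, averaged 87.0 ± 19.9 TPM in 16 dpp mutants and 261 ± 142 TPM in non-mutants. Meioc was most like Hfm1 and Tex101 (0.99 each), Ythdc2 like Atr and Dop1a (0.98 each), Rbm46 like Rnf17 and Copg2 (0.97 each), Dazl like Slc25a31 and Tex11 (0.97 each), Boll like Ube2t (0.98) and Strbp (0.97), and Elavl2 like Esco2 and Tex11 (0.97 each). These coefficients describe shared courses over age and carry no test.

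Lists of related genes at 16 dpp were read beside the members, against a median of 0.07 over all rows, of which 2.75% were called lower and 0.509% higher. Of 20 germ granule genes tested, 5 fell and none rose in mutants, with a median of -0.39. Piwil1, a piRNA-binding Argonaute that also stands among the pachytene markers, had 3.29 ± 0.714 TPM in mutants and 70.4 ± 48.9 TPM in non-mutants, with a difference of -3.76 on the log2 scale (SD, n = 5 each; limma adjusted p = 1.467e-09). Tdrd6, a scaffold of the chromatoid body, had 0.494 ± 0.202 TPM in mutants and 16.1 ± 16.1 TPM in non-mutants (SD, n = 5 each; limma adjusted p = 1.767e-06). Tdrd5 and Pld6, which act in the piRNA pathway, fell by 1.25 and 0.90 on the log2 scale. Between 12 and 16 dpp 0 of these 20 genes were called in mutants and 12 rose in non-mutants, where 6.21% of all rows in mutants and 8.88% in non-mutants were called higher. The difference between the steps was itself called for 3 of the 20, all smaller in mutants, and for the other 17 the steps are not shown to differ.

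Of 16 close relatives of the members, 3 fell and 0 rose: the Y-box genes Ybx3 (-0.92) and Ybx1 (-0.27) and the DEAD-box gene D1Pas1 (-0.72), with a median of -0.02. Ybx3 had 73.5 ± 9.65 TPM in mutants and 152 ± 69.8 TPM in non-mutants, so it differed by less than Ybx2 on the same scale, although this difference between genes was not tested. Of 33 translational regulators tested 3 fell, the testis poly(A) polymerase Papolb (-1.39) and the poly(A)-binding genes Pabpc6 (-1.63) and Pabpc1 (-0.38), with a median of 0.03. Of 18 splicing regulators 2 fell, Khdrbs3 (-0.89) and Ptbp2 (-0.44), and Rbmx rose (0.48), with a median of -0.002. None of the 19 genes of the m6A pathway and partners of YTHDC2 was called (median 0.03). Paralogs such as Ybx1 and Ybx3, or Pabpc1 and Pabpc6, may share reads, and how the authors' counting split them is uncertain.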

How the data were processed

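RNA of 30 libraries was read from 1 deposited table. The submitters' processing notes name Bowtie 1.0.0, RSEM 1.2.8 and mm10 (GRCm38) without saying what each did, and the authors deposited the result as TPM per gene. The rows held end inside the NONCODE identifiers, and 3.23 to 3.95% of each library's TPM lies outside them. Read depth cannot be had from TPM and is unknown, so precision was judged from the spread between libraries. The 9 members and the lists of related and marker genes were chosen with earlier results of these data known, and nothing here is independent support for patterns seen before.

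Rows over 1 TPM in at least 5 libraries (20021, all 9 members included) were put on the log2(TPM + 1) scale, which understates changes of low genes, and fitted with limma-trend (limma 3.58.1, R 4.3.3) in 6 groups, mutant or non-mutant at 3 ages. P-values were adjusted over all rows by Benjamini-Hochberg. The +/- and +/+ libraries were compared over 18668 rows with age as a factor. Single genes were also given an exact permutation test (scipy 1.17.1). Since the spread of a row was pooled over the 6 groups, an SE can be too small for the more variable 16 dpp non-mutants and too large for less variable groups.

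The first header line of the deposited table, whose fields it calls genotype, age, litter and unique number, gives each library's litter. Deviations of litter mates of unlike genotype from their group means correlated at 0.063 to 0.390 (13 of 17 pairs over 0.1, median 0.220), against a median of -0.084 in 58 pairs of other litters, and litter was tried as a block. The labels give no source beyond litter and replicate, so p-values measure the spread between these libraries. Symbols and positions came from GENCODE M21, promoters from RefSeq (GRCm38.p6). Named genes were the members, Prdm9, up to 4 called genes per list by smallest adjusted p at 16 dpp, and the 2 rows most like each member. Alternatives changed the pseudocount, filter, scaling, control genotype, libraries fitted and block, and left out each library.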

Additional observations from a re-analysis of the deposited data

Results flagged for a closer look

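In groups of 5 libraries, the gap between an extreme library and the nearest other was compared with the range of the group for the 9 genes and Prdm9. Of 60 groups tested, 5 held a library that stood apart, and chance flags about 1 in 20 groups. Among mutants at 12 dpp, -/- replicate 2 had the lowest level of Ythdc2 at 15.93 TPM, where the other mutants had 20.39 to 22.12 TPM. The same library had 123.40 TPM of Ddx4, where the others had 144.32 to 150.66 TPM, and 17.25 TPM of Elavl2, where the others had 27.13 to 30.45 TPM. These 3 are values of 1 library and are not independent of each other.

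Prdm9 stood apart in 2 libraries. The library labelled -/- replicate 5 at 12 dpp had 19.23 TPM, where the other mutants had 6.34 to 8.16 TPM, and its litter mate labelled +/- replicate 4 had 9.16 TPM. At 8 dpp, +/+ replicate 1 had 1.82 TPM, where the other non-mutants had 5.18 to 6.10 TPM.

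Between the genotypes, the change of Ybx2 from 12 to 16 dpp differed by -1.55 on the log2 scale, mutant step minus non-mutant step (limma, adjusted p = 0.01543). All 5 mutant libraries at 16 dpp were below all 5 non-mutant libraries, and at 12 dpp the groups overlapped.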

How the results depend on the processing

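Over 30 fits that each left out 1 library, 11 fits with another setting and 1 setting chosen after seeing the data (+/- 16 dpp replicates 2 and 3 left out together), Ybx2 stayed called at 16 dpp (-1.92 to -1.14). With litter as a block, fixed or random, the count there stayed at 3 and no other count of members called changed. Counts of members called, beside those in the report, were as follows. At 16 dpp 3 became 1 with +/+ alone as non-mutants, 1 without those 2 libraries and 1 to 3 when 1 library was left out. In mutants between 12 and 16 dpp 3 became 5 with quantile normalization, 6 with the compared libraries alone and 2 to 4 without 1 library. With the compared libraries alone the non-mutant count over the same interval went from 6 to 8. In non-mutants between 12 and 16 dpp 6 became 1 with +/+ alone, 1 without the 2 libraries and 5 to 6 without 1 library, and between 8 and 12 dpp 9 became 3 with +/+ alone. For the difference of the steps 1 became 0 with +/+ alone, 2 with the compared libraries alone, 0 without the 2 libraries and 0 to 1 without 1 library. For 16 dpp mutants against 12 dpp non-mutants 3 became 1 with +/+ alone, 1 with +/- alone, 5 with the compared libraries alone and 1 to 4 without 1 library. Fits on +/+ alone rest on 1 library at 12 dpp, assumed to vary like the others.

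Among the single-gene values followed over the settings, signs turned for the following, all near 0 on the log2 scale. At 16 dpp Ythdc2 became 0.115 with +/+ alone and 0.110 without the 2 libraries, with -0.068 to 0.066 without 1 library, and Dazl 0.027 with +/- alone, with -0.065 to 0.062 without 1 library, and 1.92 TPM as a difference of mean TPM. For Ddx25 in mutants between 12 and 16 dpp the values were 0.008 with median-ratio scaling and 0.014 without the litter that went against its labels, and -0.081 to 0.051 without 1 library; against 12 dpp non-mutants they were 0.007, 0.035 and, with +/- alone, 0.010, and -0.062 to 0.035 without 1 library. Elavl2 in non-mutants between those ages became -0.024 with +/- alone. The cause was not tested. Of the values of single genes over all settings, 2292 kept direction and side of the threshold, 65 lost a call, 13 gained one and 27 changed sign.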
